A study of Solanum lycopersicum with 21 samples.

Results

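The distal arm band is the stretch of each tomato chromosome arm that lies 1 Mb or more and under 5 Mb from the nearest chromosome end. In the deposited DNA affinity purification sequencing (DAP-seq) peak lists, 3781 of 52995 peaks had their summit there, chosen by position alone and not by any measured value. An end was position 0 or the last peak end of that chromosome over the 6 lists, so the band covered 96 Mb, or 11.6% of the length of the 12 chromosomes, in 24 stretches, one per arm. It was compared with the interior, the 704 Mb that lay 5 Mb or more from both ends and held 41710 peaks. The outermost 1 Mb of each arm and the unplaced sequence were left out of these comparisons.

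The study asked which genomic sites are bound by the tomato MADS-domain transcription factors (TFs) FUL2 and MC when each is combined with J, J2 or TM3. Each of the 6 complexes, named by its protein and its partner (FUL2-J, for example, or MC-TM3), had 3 libraries, beside 3 input libraries made from an expression mix without plasmid, 21 samples in all. The proteins were expressed in a wheat germ extract without cells, mixed with fragments of naked genomic DNA and pulled down through a FLAG tag on FUL2 or MC, after which the DNA that came down with them was amplified and sequenced. All samples used DNA from young leaves of wild-type plants of cultivar Moneyberg, so the assay measures binding in vitro, without chromatin and outside the meristems where these TFs act, and a pull-down through FUL2 or MC does not show which proteins of the mix were present in each bound complex. The authors merged the libraries of a complex and deposited one list of peaks for each. The lists therefore hold no value per library and no replicate error, and the intervals given here cover counting error over peaks only.

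MADS-domain TFs bind CArG-boxes, short AT-rich elements, as dimers and tetramers, and their choice of partner can change which sites a complex holds. FUL2 and MC belong to the AP1/FUL family, whose members specify reproductive meristems, and MC is the closest tomato relative of Arabidopsis AP1. J acts in inflorescence meristem identity, J2 is a SEPALLATA-type protein that acts in flower meristem maturation, and TM3 is related to SOC1 and promotes the floral transition. In tomato, genes are concentrated in the euchromatin of the distal arms, while the wide pericentromeres are rich in repeats and poor in genes. The assay uses DNA without chromatin, so packing in the nucleus does not enter it. DNA methylation can, since the paper describes the leaf library as not amplified and still carrying DNA modifications. Methylation was not measured here.

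All 6 lists held fewer peaks per Mb in the band than in the interior. FUL2-J had 793 band peaks, 8.26 per Mb (95% exact Poisson interval 7.70–8.86), against 13.3 per Mb in the interior, a ratio of 0.622 (0.577–0.668). MC-J had 812 band peaks, 8.46 per Mb, against 13.9 per Mb in the interior, a ratio of 0.610 (0.567–0.656). The J complexes thus had the lowest ratios. FUL2-J2 had 453 band peaks, 4.72 per Mb, against 6.23 per Mb in the interior (ratio 0.758, 0.686–0.835). MC-J2 had 426 band peaks, 4.44 per Mb, against 5.91 per Mb in the interior (0.751, 0.678–0.830). The J2 complexes had the highest ratios, and the intervals of both lay above those of both J complexes. FUL2-TM3 had 457 band peaks, 4.76 per Mb, against 7.04 per Mb in the interior (0.676, 0.613–0.744), and MC-TM3 had 840 band peaks, 8.75 per Mb, against 12.9 per Mb in the interior (0.678, 0.631–0.727). Within each partner, the intervals of the FUL2 and the MC complex overlapped. Averaged over the 6 lists, the density in the band was 0.680 times that in the interior (mean log2 ratio −0.56, below 0 in 6 of 6 lists; exact two-sided sign-flip permutation test over lists, p = 0.03125, the smallest p that 6 lists allow, adjusted p = 0.0938 over 3 tests). The lists share proteins, DNA and input and are not independent samples. The band was less dense on all 12 chromosomes for MC-J and MC-TM3, on 11 for FUL2-J and on 10 for FUL2-J2, MC-J2 and FUL2-TM3.

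**Figure D1:**
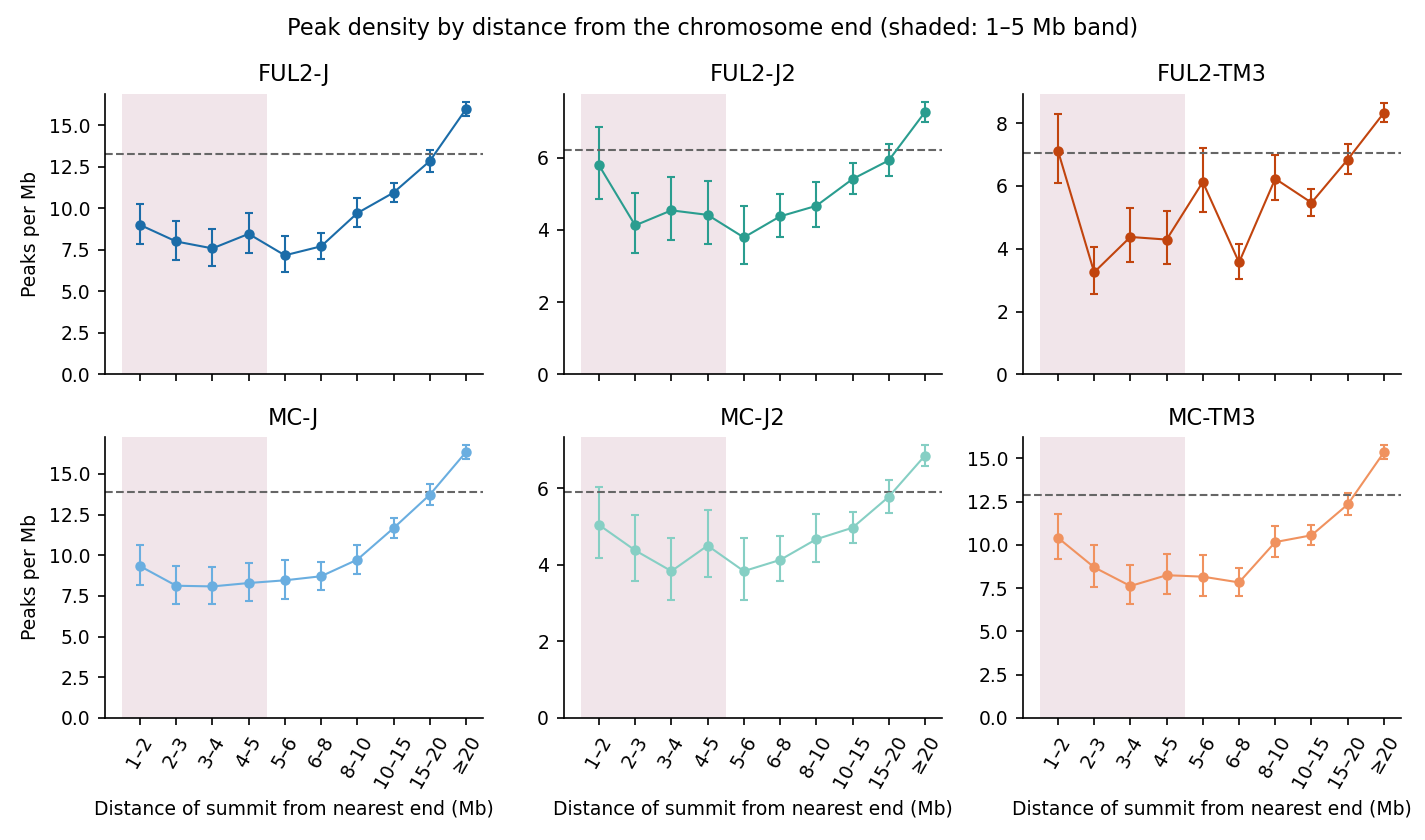
Peaks per Mb (y axis) against the distance of the summit from the nearest chromosome end (x axis, Mb, bins of unequal width), one panel per list, with 95% exact Poisson intervals and the density of the whole interior as a dashed line. The shaded part is the band. From 2 Mb to 8 Mb all lists but FUL2-TM3 ran nearly flat, and all 6 lists had the highest of the plotted values at 20 Mb or more, where MC-J reached 16.3 per Mb and MC-J2 6.85 per Mb. The outermost 1 Mb is not plotted.

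The lower density was not limited to the band. Over the adjoining 120 Mb that lay 5 Mb or more and under 10 Mb from the ends, FUL2-J had nearly the density of the band, with 8.26 peaks per Mb in the band, against 8.40 in this stretch, and the ratio of band to adjoining stretch was 0.983 (0.895–1.08). For MC-J this ratio was 0.933 (0.851–1.02). It was 1.08 (0.949–1.23) for FUL2-J2 and 1.04 (0.909–1.18) for MC-J2, and 0.926 (0.819–1.05) for FUL2-TM3 and 0.991 (0.904–1.09) for MC-TM3. All 6 intervals included 1. With the interior limited to these 5 Mb, the mean log2 ratio was −0.0148, below 0 in 4 of 6 lists (exact sign-flip permutation test, p = 0.688). Farther in the density was higher. Beyond 10 Mb FUL2-J had 14.3 peaks per Mb and MC-J2 6.24, and the ratio of the 5 to 10 Mb stretch to the rest was between 0.588 (FUL2-J) and 0.691 (FUL2-TM3). The band thus formed the outer portion of a wider zone of low density.

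Within the band the density changed little with distance, apart from its outermost 1 Mb in some lists. FUL2-J had 9, 8, 7.58 and 8.46 peaks per Mb at 1 to 2, 2 to 3, 3 to 4 and 4 to 5 Mb, and MC-J2 had 5.04, 4.38, 3.83 and 4.5. FUL2-TM3 was less even, with 7.13, 3.25, 4.38 and 4.29 peaks per Mb over the same steps, and MC-TM3 had 10.4, 8.71, 7.63 and 8.25. At the outer limit, FUL2-TM3 had 69 peaks in the 0.1 Mb just inside the band and 158 in the 0.1 Mb just outside it. For MC-TM3 these counts were 45 and 64, for FUL2-J 15 and 18, and for MC-J2 10 and 11. At the inner limit the 0.1 Mb just inside and just outside held 8 and 21 peaks of FUL2-TM3, and between 9 and 24 of each other list on either side. Outside the band, the outermost 1 Mb held 205 FUL2-TM3 peaks and 59.0 MC-TM3 peaks per Mb, against 3.25 to 8.83 in the J and J2 lists.

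Densities also differed between single arms. A stretch of 1 arm holds far fewer peaks than a step of distance pooled over all arms. Part of the spread between arms is therefore counting error, and the 2 spreads were not compared. Over the 24 band stretches the median density was 7.75 peaks per Mb for FUL2-J (range 4.75–18.5) and 7.88 for MC-J (5.25–18.5). It was 4.38 for FUL2-J2 (2–9) and 4.13 for MC-J2 (2–8.5), and 3.5 for FUL2-TM3 (1.5–16.5) and 7.88 for MC-TM3 (6.25–14.5). In FUL2-J, MC-J and MC-TM3 only 1 of the 24 stretches exceeded the interior of its list, in FUL2-J2 and FUL2-TM3 3 did, and in MC-J2 4. The J2 lists ordered the arms most alike, and the J lists next. Across the 24 stretches Spearman's rho was 0.927 between the J2 lists, 0.817 between the J lists and 0.604 between the TM3 lists, while it was between 0.416 and 0.677 for the 12 pairs of lists with different partners, a range that held the value of the TM3 lists. These are descriptions over arms that share libraries and input, so no p is given.

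**Figure D2:**
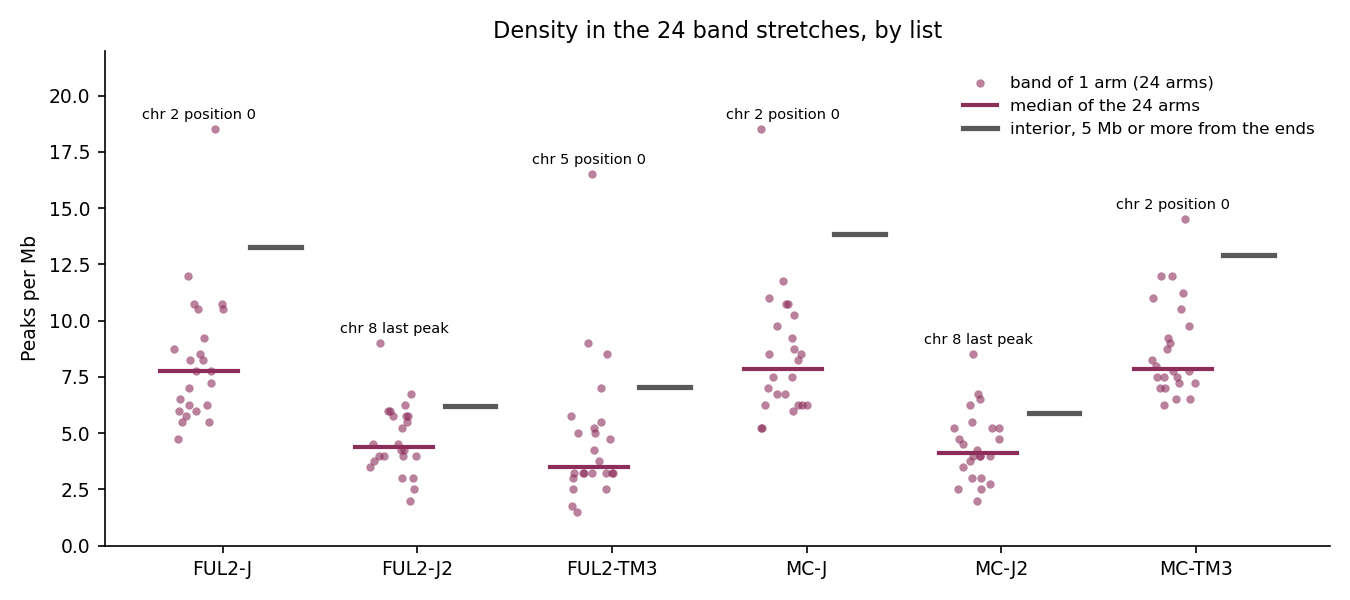
Peaks per Mb (y axis) in each of the 24 band stretches (points, 4 Mb each) for the 6 lists (x axis), with the median of the stretches and the density of the interior as lines. The highest stretch is named in each list; it stood at 18.5 per Mb in both J lists, at the start of chromosome 2, and at 16.5 per Mb in FUL2-TM3, at the start of chromosome 5.

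The stretch at the position-0 end of chromosome 2 was the densest for FUL2-J and MC-J, with 74 peaks in each list, and for MC-TM3, with 58 peaks. The next densest stretches had 12 peaks per Mb for FUL2-J and 11.8 for MC-J. The J2 lists did not share this height, with 5.75 peaks per Mb there for FUL2-J2 and 6.75 for MC-J2. Their densest stretch was the far end of chromosome 8, with 9 peaks per Mb for FUL2-J2 and 8.5 for MC-J2, where FUL2-TM3 had 3.25. Tomato chromosome 2 is acrocentric and carries the ribosomal DNA on its short arm, and whether that arm begins at position 0 of this assembly was not checked. Without this stretch the mean log2 ratio of band to interior density was −0.61, an alternative added after seeing the data.

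At the position-0 end of chromosome 5, FUL2-TM3 had 66 band peaks, 16.5 per Mb, against 4.25 per Mb over the other 23 stretches. Of the 66, 52 lay side by side between 1001087 and 1091391, directly inside the outer limit of the band. They were broad, with a median width of 612.5 bp, against 310 bp for the band peaks of other arms, and low, with a median fold of 3.02, against 3.89 on the other arms. MC-TM3 had 23 peaks in the same place, which overlapped 20 of the 52, while FUL2-J and MC-J had 1 each and the J2 lists none. The local background recovered at these summits had a median of 17.6 input reads, over 48 peaks, against 13 in the whole band for FUL2-TM3. Without this stretch, 17 of the 69 peaks at 1.0 to 1.1 Mb remained. With it left out, an alternative added after seeing the data, the mean log2 density ratio was −0.59 and the median fold of FUL2-TM3 in the first step of the band was 3.84, against 3.46 with it.

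Band peaks were about as strong as interior peaks. The fold given here is the enrichment at the summit over the local background, as the peak caller wrote it, and is compared only within a list. The median fold was 4.29 in the band, against 4.20 in the interior, for FUL2-J. The other lists with a higher median in the band were FUL2-J2, at 4.30 against 4.25 in the interior, MC-J, at 4.02 against 3.96, MC-J2, at 4.45 against 4.37, and MC-TM3, at 4.37 against 4.32. Only FUL2-TM3 was lower in the band, at 3.76 against 3.84 in the interior. These differences were between −0.030 and 0.031 on the log2 scale and averaged 0.014, above 0 in 5 of 6 lists (exact two-sided sign-flip permutation test over lists, p = 0.188, adjusted p = 0.188 over 3 tests). The middle 80% of the folds ran from 3.26 to 5.65 in the band and from 3.10 to 5.75 in the interior for FUL2-J, and from 2.82 to 4.89 in the band and from 2.92 to 5.02 in the interior for FUL2-TM3. By −log10 q, 1 of 26 alternatives for strength, the direction was the opposite. The mean difference in the median log2 of −log10 q was −0.026, below 0 in 6 of 6 lists (exact sign-flip permutation test, p = 0.03125, adjusted p = 0.0469 over 3 tests). This p was adjusted together with those of the main density and sharing tests. By list the difference was largest in FUL2-TM3 (−0.085) and near 0 in FUL2-J2 (−0.0021) and MC-J2 (−0.0017).

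Reads and background at the summits differed slightly between band and interior. Where the caller's formulas could be solved for reads and background, the median number of treatment reads at a summit was slightly lower in the band in all 6 lists, at 89.0 against 91.0 in the interior for FUL2-J, 107 against 111 for MC-J2 and 75 against 77 for MC-TM3. The caller sets a lowest background for each list, which applies where the input has no local excess. Of the solved FUL2-J summits, 46.7% (43.3–50.2%) stood at that common background in the band, against 36.2% (35.2–37.2%) in the interior. The shares were 49.3% and 41.3% for FUL2-J2, 37.6% and 28.8% for MC-J, 53.2% and 43.0% for MC-J2, and 51.1% and 43.8% for MC-TM3, with intervals that did not overlap in any of these lists. For FUL2-TM3 they were 26.2% (22.4–30.5%) and 24.8% (23.6–26.0%), which overlapped. In the outermost 1 Mb, 1.77% of the FUL2-TM3 summits stood at the common background. Local input excess was thus less frequent under band peaks than under interior peaks for 5 of the 6 complexes. The strongest 10% of a list took 8.45% (6.76–10.5%) of the MC-TM3 band peaks, against 11.3% in the interior, and this was the only list whose intervals did not overlap. The share was also lower in the band for FUL2-J (8.95%, against 10.3%), FUL2-TM3 (14.4%, against 16.1%) and MC-J2 (10.1%, against 10.3%), and higher than in the interior for FUL2-J2 (11.3%) and MC-J (11.2%).

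**Figure D3:**
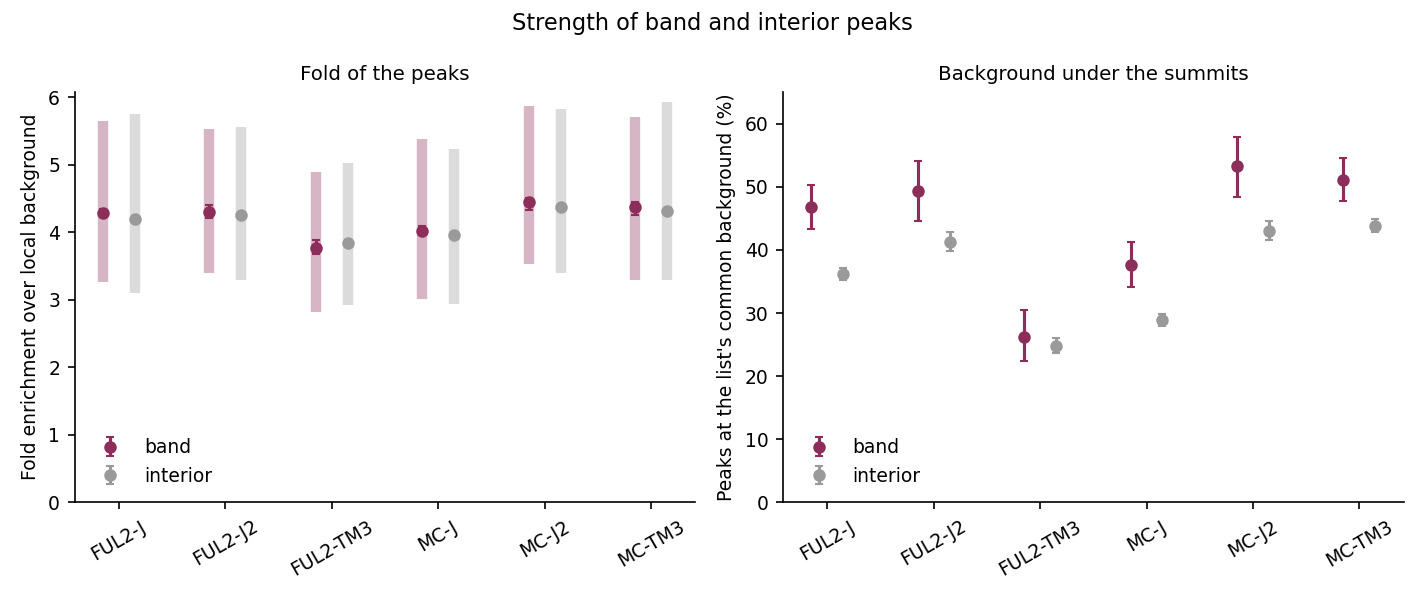
Left, median fold enrichment (y axis) of band and interior peaks in each list (x axis), with the binomial 95% interval of the median as a thin bar and the middle 80% of the peaks as a wide bar. Right, percentage of solved peaks (y axis) whose summit stood at the list's common background, with 95% Wilson intervals; the band was higher in all 6 lists, by most in FUL2-J (46.7% in the band, 36.2% in the interior).

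With J and with TM3 as partner, FUL2 and MC shared a smaller part of their band peaks than of their interior peaks, while with J2 the share was slightly higher in the band, within its interval. A peak was shared when a peak of the other protein with the same partner overlapped it by at least 1 bp. For J, 442 of 793 FUL2-J band peaks were shared with MC-J, 55.7% (95% Wilson interval 52.3–59.2%), against 60.4% (59.4–61.4%) in the interior and 59.8% over the 12 chromosomes. From the side of MC-J, 54.4% of the band peaks were shared, against 58.0% in the interior and 57.6% over the 12 chromosomes. For TM3, 61.1% (56.5–65.4%) of the FUL2-TM3 band peaks were shared with MC-TM3, against 67.5% (66.2–68.8%) in the interior. Over the 12 chromosomes this share was 46.1%, which includes the outermost 1 Mb. Of the MC-TM3 band peaks, 33.5% were shared with FUL2-TM3, against 36.9% in the interior and 43.0% over the 12 chromosomes. Both J and both TM3 lists were thus shared less in the band. For J2, 73.1% (68.8–76.9%) of the FUL2-J2 band peaks were shared with MC-J2, against 71.8% in the interior and 71.7% over the 12 chromosomes, and 77.7% (73.5–81.4%) of the MC-J2 band peaks with FUL2-J2, against 75.7% in the interior and 75.9% over the 12 chromosomes. The difference between band and interior had a 95% interval that excluded 0 for the 4 J and TM3 lists, from −8.31 to −1.14 percentage points for FUL2-J and from −11.2 to −1.87 for FUL2-TM3, but only up to −0.00956 for MC-J and −0.0536 for MC-TM3. For J2 it included 0 (−3.22 to 5.35 for FUL2-J2, −2.38 to 5.93 for MC-J2). The mean over the 6 lists was −2.48 percentage points, below 0 in 4 of 6 lists (exact two-sided sign-flip permutation test, p = 0.125, adjusted p = 0.188 over 3 tests), and the 6 values are 3 linked pairs, since each overlap enters from both sides. Set against the adjoining 5 to 10 Mb, the mean was 1.61 percentage points, and the interval of the difference included 0 in each of the 6 lists. Without the band stretch at the position-0 end of chromosome 5, the difference from the interior was −3.54 percentage points for FUL2-TM3 and −5.35 (−8.64 to −1.88) for MC-TM3, and the interval of FUL2-TM3 then included 0. This alternative was added after seeing the data.

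Where both proteins had a peak in the band, their summits lay about as close together as in the interior. The summits of 442 shared FUL2-J and MC-J peaks were a median of 18 bp apart in the band and 17 bp in the interior, those of 331 J2 peaks 13 and 14 bp, and those of 279 TM3 peaks 23 bp in both. Spearman's rho of the folds across shared band peaks was 0.633 for J, against 0.656 in the interior, 0.772 for J2, against 0.769, and 0.671 for TM3, against 0.591. Peaks are not independent replicates, and folds share the local background of the input.

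Over all 30 ordered pairs of lists, 23 had a lower share of overlapped peaks in the band than in the interior, and in 19 the interval of the difference lay below 0, against 2 above it. Without the position-0 stretch of chromosome 5 these numbers were 22, 15 and 2. Each pair of lists enters from both sides with nearly the same overlaps. The counts therefore hold linked values and are not 30 separate results. The largest differences involved FUL2-TM3 and J2. Of the MC-J2 band peaks, 108 of 426, or 25.4% (21.5–29.7%), were overlapped by FUL2-TM3, against 41.2% (39.7–42.7%) in the interior and 39.5% over the 12 chromosomes, a difference of −15.8 percentage points (−20.0 to −11.2) that was negative on 10 chromosomes. Of the FUL2-J2 band peaks, 30.9% (26.8–35.3%) were overlapped by FUL2-TM3, against 43.4% (42.0–44.9%) in the interior and 42.1% over the 12 chromosomes, a difference of −12.5 (−16.9 to −7.89). Unlike the densities, these shares were also lower than in the adjoining 5 to 10 Mb, where 36.6% of the MC-J2 peaks and 40.4% of the FUL2-J2 peaks were overlapped by FUL2-TM3. The differences from that stretch were −11.2 percentage points (−17.0 to −5.29) and −9.48 (−15.4 to −3.45). For the J peaks the share with FUL2-TM3 changed less, with 25.5% of the FUL2-J and 22.8% of the MC-J band peaks, against 30.1% and 24.9% in the interior and 30.1% and 24.8% over the 12 chromosomes. MC-TM3 overlapped 68.3% of the MC-J2 band peaks, against 76.2% in the interior and 75.5% over the 12 chromosomes. The pairs with an interval above 0 were FUL2-J overlapped by FUL2-J2, at 36.4% in the band, against 32.4% in the interior and 32.6% over the 12 chromosomes, and FUL2-J overlapped by MC-J2, at 33.4%, against 29.8% and 29.9%. In the other direction, 63.8% of the FUL2-J2 band peaks had a FUL2-J peak, against 69.1% in the interior and 68.5% over the 12 chromosomes.

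Counted from FUL2-TM3, all shares were lower in the band, but their size moved with the position-0 end of chromosome 5, where 66 of its band peaks lay. Of its 457 band peaks, 44.2% were overlapped by FUL2-J, against 56.7% in the interior, 40.5% by MC-J, against 48.9%, 30.6% by FUL2-J2, against 38.4%, and 23.6% by MC-J2, against 34.5%. Over the 12 chromosomes, the outermost 1 Mb included, these shares were 30.1%, 25.8%, 20.1% and 17.8%. All 4 intervals of the difference lay below 0, and the share with MC-J2 was lower in the band on all 12 chromosomes. Without those 66 peaks the shares in the band were 49.4% with FUL2-J, 45.0% with MC-J, 34.3% with FUL2-J2 and 26.3% with MC-J2. The differences from the interior were then −7.33 percentage points (−12.4 to −2.21) with FUL2-J and −8.19 (−12.5 to −3.43) with MC-J2, while the intervals with MC-J (−8.97 to 1.23) and FUL2-J2 (−8.85 to 0.904) included 0. Counted from the J2 lists, the overlap by FUL2-TM3 moved little without the band peaks of that end, to −15.7 percentage points for MC-J2 and −12.4 for FUL2-J2. MC-TM3 differed less and not in 1 direction. Of its 840 band peaks, 44.4% were overlapped by FUL2-J, against 50.7% in the interior and 45.2% over the 12 chromosomes, and 33.9% by MC-J, against 38.9% and 34.3%. Its shares with the J2 complexes had intervals that included 0, at 39.0% with FUL2-J2, against 37.3% in the interior and 33.4% over the 12 chromosomes, and 34.6% with MC-J2, against 34.9% and 31.0%.

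Of the J2 peaks, a smaller share was overlapped by a J complex in the band than in the interior. MC-J overlapped 42.7% of the MC-J2 band peaks, against 52.1% in the interior and 51.1% over the 12 chromosomes, and 46.6% of the FUL2-J2 band peaks, against 53.9% and 53.0%. FUL2-J overlapped 62.2% of the MC-J2 band peaks, against 67.1% in the interior and 66.5% over the 12 chromosomes. Counted from MC-J, the shares were 26.0% with FUL2-J2, against 24.2% in the interior and 24.3% over the 12 chromosomes, and 22.4% with MC-J2, against 22.2% and 22.2%. MC-TM3 overlapped 72.4% of the FUL2-J2 band peaks, against 77.4% in the interior and 77.0% over the 12 chromosomes. It overlapped 47.0% of the FUL2-J band peaks, against 49.3% and 49.5%, and 35.1% of the MC-J band peaks, against 36.3% and 36.3%. The differences counted here from MC-J and FUL2-J had intervals that included 0, while those counted from the J2 lists had intervals below 0. The shares of FUL2-J peaks with the J2 lists, given above, were higher in the band. The direction between FUL2-J and the J2 lists thus depended on the side counted. Both sides count the same overlaps, with FUL2-J2 289 in the band and 3030 in the interior. Only the number of peaks they are divided by differs. The ratio of band to interior density was 0.622 for FUL2-J and 0.758 for FUL2-J2.

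**Figure D4:**
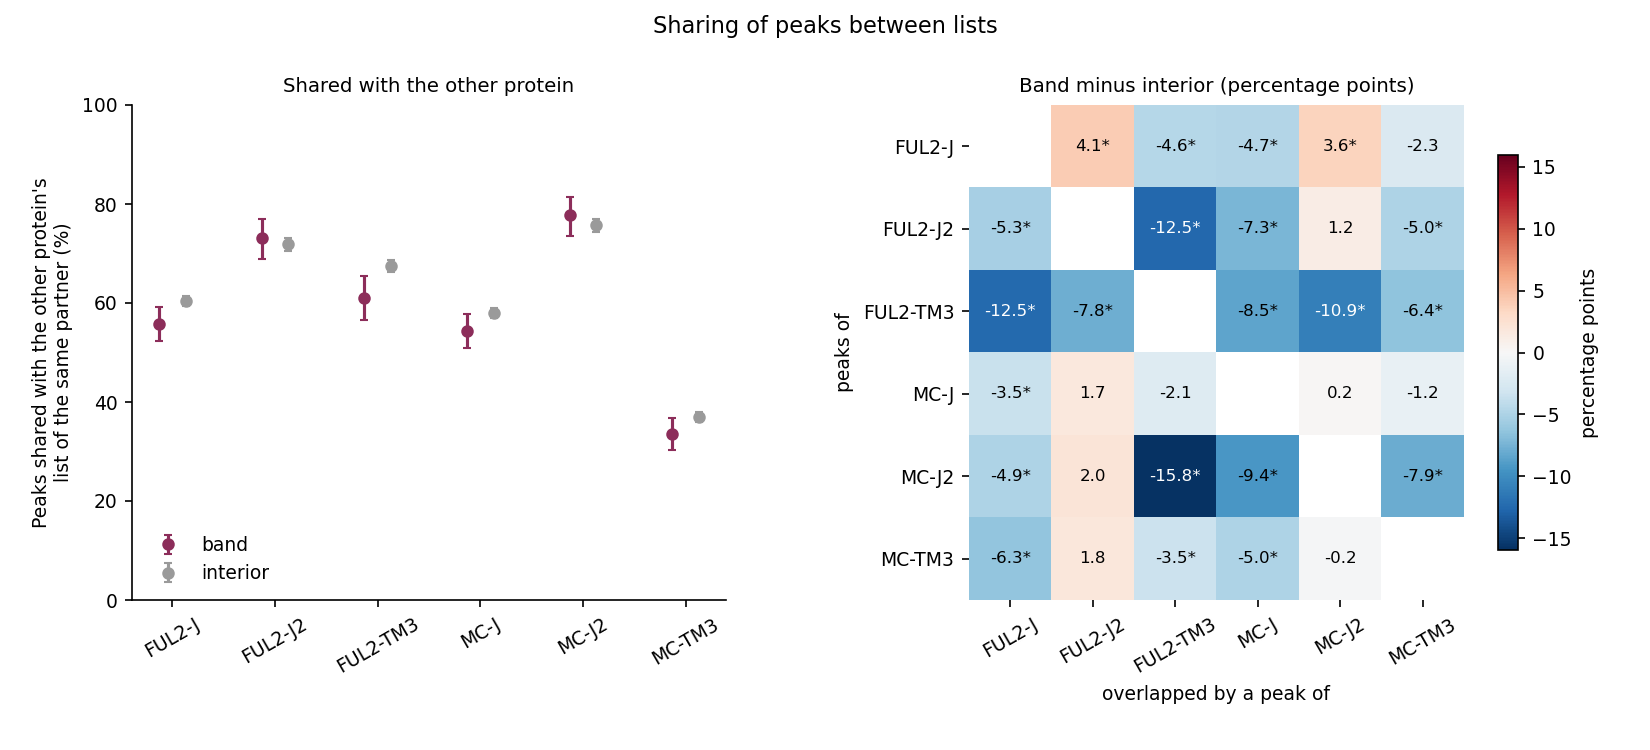
Left, percentage of peaks (y axis) of each list (x axis) overlapped by the other protein's list of the same partner, in the band and in the interior, with 95% Wilson intervals. Right, band minus interior share in percentage points for all 30 ordered pairs (rows, the peaks counted; columns, the list that overlaps them; asterisk, 95% interval of the difference excludes 0); the lowest value was −15.8, for MC-J2 peaks overlapped by FUL2-TM3.

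When overlapping peaks of all lists were joined, the band held 1817 of the 26442 regions on the 12 chromosomes, 18.9 per Mb, against 27.6 per Mb in the interior. Neighbouring band regions of an arm were a median of 31.2 kb apart, against 20.4 kb in the interior. Of the band regions, 919 (50.6%, 48.3–52.9%) held a peak of a single list, against 48.8% in the interior and 54.3% over the 12 chromosomes. Regions with all 6 lists made up 75 of the 1817, or 4.13% (3.31–5.14%), against 6.17% (5.84–6.52%) in the interior and 4.87% over the 12 chromosomes, and their share was lower in the band on 11 chromosomes. Set against the adjoining 5 to 10 Mb, where it was 4.82%, the difference of −0.689 percentage points had an interval from −1.94 to 0.599. Regions of 5 or 6 lists together were 9.47%, against 11.2% in the interior and 8.97% over the 12 chromosomes. Regions of 4 and of 5 lists were 8.09% and 5.34% of the band, against 7.05% and 4.98% of the interior, with intervals that overlapped.

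Single combinations of lists also differed. Regions of FUL2-J and MC-J alone were 150 of the band regions, 8.26% (7.08–9.61%), against 10.8% in the interior and 8.64% over the 12 chromosomes. In the adjoining 5 to 10 Mb they were 9.04%, and the difference of −0.786 percentage points had an interval that included 0 (−2.48 to 0.953). Regions of FUL2-TM3 and MC-TM3 alone were 81, or 4.46% (3.60–5.51%), against 3.03% in the interior and 6.34% over the 12 chromosomes. In the adjoining stretch they were 2.96% (interval of the difference 0.354–2.71). Without the position-0 end of chromosome 5, 61 of the band regions remained, or 3.58%. Regions of FUL2-J2 and MC-J2 alone were 37, or 2.04%, against 1.42% and 1.19%. The combination of FUL2-J, FUL2-J2, MC-J2 and MC-TM3, which lacks MC-J and FUL2-TM3, made up 58 band regions, 3.19% (2.48–4.10%), against 1.62% in the interior and 1.44% over the 12 chromosomes, and its share was higher in the band on 11 chromosomes. In the adjoining 5 to 10 Mb it was 1.44% (difference 1.76, 0.845–2.75). Regions of all lists but FUL2-TM3 were 57, or 3.14%, against 2.52% in the interior and 2.11% over the 12 chromosomes, and the interval of this difference included 0. Peaks of MC-J2 alone made up 2.53% of the regions, against 1.71% and 1.45%. Regions with at least 1 FUL2 and 1 MC list were 46.2% of the band, against 47.8% in the interior and 42.9% over the 12 chromosomes. In all, 55 of the possible combinations of lists occurred in the band. These combinations were singled out after their values were seen and are given without a test.

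Peaks without any overlap made up 21.9% of the FUL2-J band peaks, against 19.5% in the interior and 19.5% over the 12 chromosomes, and 37.6% of the MC-J band peaks, against 35.3% and 35.5%. The J2 lists had few, 27 FUL2-J2 and 46 MC-J2 band peaks (5.96% and 10.8%), against 5.45% and 7.96% in the interior and 5.55% and 8.23% over the 12 chromosomes. Of the FUL2-TM3 band peaks, 123 (26.9%) stood alone, against 21.3% in the interior and 47.9% over the 12 chromosomes, and 87 of them remained without the position-0 stretch of chromosome 5. Of the MC-TM3 band peaks, 29.0% stood alone, against 28.4% in the interior and 25.8% over the 12 chromosomes. In each list the band peaks that stood alone were the weaker ones. Ranked by −log10 q within the whole list, where 100 is the strongest, their median percentile was between 26.9 (MC-J2) and 44.5 (FUL2-TM3), against 52.5 to 65.8 for the band peaks with an overlap. The same held in each list in the interior. There the median percentile was between 26.9 (MC-J2) and 53.6 (FUL2-TM3) for peaks alone, against 52.5 to 66.7 for those with an overlap.

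The strongest sites of the band showed how far the 6 complexes met. Here and below, the strongest peak of a list is the one with the highest −log10 q. Coordinates are those of the Moneyberg genome as the lists give them, and the gene annotation at these sites was not used here. The strongest band peak of both TM3 complexes lay in one region on chromosome 3, chr3:65311792-65312337, 3.13 Mb from the end, which all 6 lists held. Its fold was 11.1 in MC-TM3, 7.78 in FUL2-TM3, 7.56 in FUL2-J, 7.40 in MC-J, 6.28 in FUL2-J2 and 4.60 in MC-J2. By rank it was near the top in 5 lists, at percentile 94.7 or more, and in the middle of the MC-J2 list, at percentile 51.9. The strongest MC-J2 band peak, at chr7:66437297-66437776, was also held by all 6 lists, with folds of 9.22 in MC-J2, 9.85 in FUL2-J, 7.97 in MC-TM3, 7.62 in FUL2-J2, 6.88 in MC-J and 5.93 in FUL2-TM3. It ranked at percentile 97.4 or more in each of them. The strongest FUL2-J2 band peak, at chr8:64043545-64043982, had folds of 7.85 in FUL2-J2, 7.69 in MC-J2 and 8.35 in MC-TM3, and of 5.34 in FUL2-J, 5.39 in FUL2-TM3 and 5.01 in MC-J. It ranked at percentile 97.6 or more in the J2 and TM3 lists, but at percentile 83.8 in FUL2-J and 84.1 in MC-J.

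By −log10 q, both J complexes had their strongest band peak at a site of J alone. For FUL2-J it lay at chr2:2774091-2774836, in the dense stretch of chromosome 2, with a fold of 6.95 in FUL2-J and 5.15 in MC-J, at percentiles 99.9 and 98.7 of these lists. About 265 FUL2-J reads covered its summit, over a local background of 24 input reads. For MC-J it lay at chr8:64861988-64862383, with a fold of 6.67 in MC-J and 6.14 in FUL2-J, at percentiles 99.9 and 97.5. No J2 or TM3 peak was called at either site. By fold, neither site was the highest of its list in the band. The highest band fold of FUL2-J was 9.85, at the chr7 site that all 6 lists held. For MC-J the highest band fold was 8.24, and its fold at chr3:65311792-65312337, held by all 6 lists, was 7.40. Among the 75 regions with all 6 lists, those with the highest mean percentile were, besides the chr7 site, chr3:64865987-64866412, chr5:4584181-4584634, chr2:1493727-1494160 and chr3:1161000-1161528. Their folds ran from 6.44 to 8.33, from 5.25 to 6.24, from 5.85 to 8.04 and from 5.38 to 7.05 over the 6 lists. These regions were picked for having all 6 lists and then by rank, so their sharing and strength follow from that choice.

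The strongest band peaks of a TM3 complex alone had folds of 4.71 to 5.74. FUL2-TM3 had one at chr1:4256886-4257266, with a fold of 5.44 and at percentile 98.4, and one at chr5:1034773-1035624, with a fold of 4.71 and at percentile 97.2, which lay in the crowded stretch of chromosome 5. MC-TM3 had one at chr11:2930239-2930589 (fold 5.74, percentile 91.4) and one at chr11:54658392-54658786 (fold 5.06, percentile 90.9). Whether the other complexes had a signal below their threshold there was not analysed here.

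On chromosome 1 most FUL2-J band peaks lay in or near genes, while most interior peaks were classed as distal intergenic. For FUL2-J, the place of each peak on this chromosome was read from the annotation that the authors made with ChIPseeker. It counts a peak as promoter up to 3 kb from a transcription start and as distal intergenic when no gene class applies. Peaks in or near genes are those classed as promoter, exon, intron or UTR. Distances to genes were not analysed here, so a distal intergenic peak need not lie far from a gene. Of the 42 FUL2-J band peaks on chromosome 1, 21 were promoter, 8 intron, 6 exon and 1 UTR peaks, and 6, or 14.3% (6.72–27.8%), were distal intergenic. In the interior of the chromosome 911 of 1117 peaks, or 81.6% (79.2–83.7%), were distal intergenic, a difference of −67.3 percentage points (−75.1 to −53.5). Between 5 and 10 Mb from the ends 34 of 77 peaks, or 44.2% (33.6–55.3%), were, and farther in 84.3%. The share of peaks near genes was thus highest in the band. Per Mb, the band held 4.5 peaks in or near genes, against 2.38 in the interior (ratio 1.89, 1.29–2.70), and 0.75 distal intergenic peaks, against 10.5 (ratio 0.0712, 0.0260–0.155). The lower peak density of the band on this chromosome lay in the distal intergenic peaks, while peaks in or near genes were denser than in the whole interior. This was not particular to the band. The adjoining 5 to 10 Mb, a somewhat longer stretch, held 43 peaks in or near genes, against 36 in the band. These values rest on 1 list and 1 chromosome with no replicate, and gene density itself was not measured here.

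The position-0 stretch of chromosome 2, also covered by the annotation used here, was unlike chromosome 1. Of its 74 FUL2-J peaks, 69, or 93.2% (85.1–97.1%), were distal intergenic, 4 lay in introns and 1 in a promoter. This was the only stretch in which FUL2-J was denser than in the interior. At the other arms the place of peaks relative to genes was not analysed here.

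**Figure D5:**
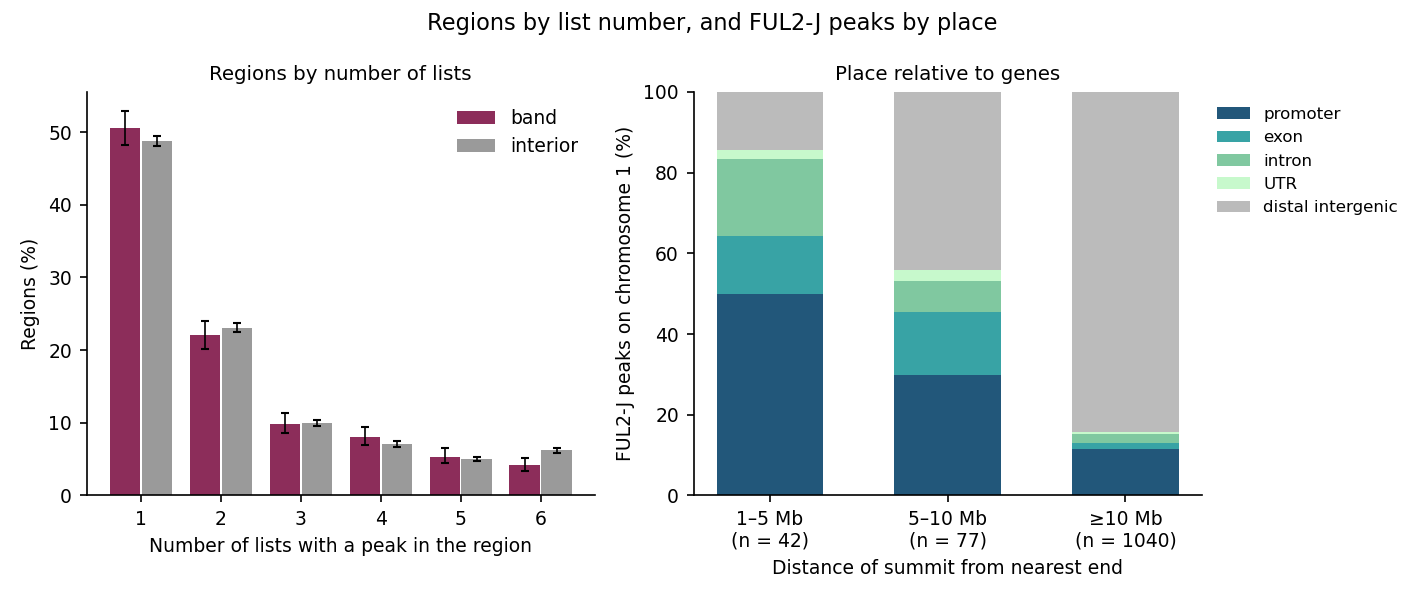
Left, percentage of regions (y axis) by the number of lists with a peak in them (x axis), in the band and in the interior, with 95% Wilson intervals; regions of all 6 lists were 4.13% in the band and 6.17% in the interior. Right, place relative to genes of the FUL2-J peaks of chromosome 1 (percentage of peaks, y axis) by distance of the summit from the nearest end (x axis); distal intergenic peaks were 14.3%, 44.2% and 84.3% of the 3 steps.

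The 36 FUL2-J peaks in or near genes in the band of chromosome 1 had a median fold of 4.61 (4.13–4.88), against 4.13 for the peaks near genes and 4.13 for the distal intergenic peaks of the interior. Of the 36, 23 (63.9%) were overlapped by MC-J, against 54.4% of the peaks near genes in the interior of the chromosome and 59.8% of all FUL2-J peaks. MC-TM3 overlapped 15 (41.7%), against 46.6% and 49.5%, FUL2-J2 12 (33.3%), against 34.0% and 32.6%, and MC-J2 12 (33.3%), against 28.6% and 29.9%. FUL2-TM3 overlapped 5 (13.9%, 6.08–28.7%), against 20.9% and 30.1%. The share with FUL2-TM3 was thus below that of all FUL2-J peaks, and its interval included that of the peaks near genes in the interior, while the other 4 shares lay near those of other FUL2-J peaks. The strongest by −log10 q lay at chr1:92384900-92385276 in an exon of Solyc01g106770, with a fold of 5.69 in FUL2-J and no peak in any other list. The next lay at chr1:91554136-91554555, within 1 kb of the start of Solyc01g105590, and was held by all 6 lists, with folds of 5.35 in FUL2-J, 6.38 in MC-TM3, 4.65 in MC-J2, 4.49 in FUL2-J2, 3.53 in MC-J and 3.45 in FUL2-TM3. An intron of Solyc01g009090 also held peaks of all 6 lists, at chr1:3661858-3662226, with folds between 4.32 (MC-J2) and 7.65 (MC-TM3). These 3 sites ranged from 1 list to all 6. They were picked by their rank in FUL2-J, so their FUL2-J folds do not show how strength relates to the number of lists.

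Other genes among the strongest 10 had peaks of some complexes only. A peak in an intron of Solyc01g008560, at chr1:3215783-3216163, had a fold of 5.96 in FUL2-J, 5.20 in FUL2-J2, 5.20 in MC-J2 and 6.56 in MC-TM3, the same 4 lists as in the combination above. A peak in the 3′ UTR of Solyc01g107200, at chr1:92687196-92687551, had a fold of 6.02 in FUL2-J and was held by all lists but FUL2-TM3, and so was one in an intron of Solyc01g009310, described as a meloidogyne-induced giant cell protein, at chr1:4053427-4053751, with a fold of 5.37 in FUL2-J. Peaks of FUL2-J and MC-J alone lay within 1 kb of the start of Solyc01g111050 (folds 4.79 and 4.49) and 1 to 2 kb from that of Solyc01g106500, described as an LRR receptor-like serine/threonine-protein kinase (4.82 and 5.47). A peak in an intron of Solyc01g107870 was held by FUL2-J, FUL2-J2 and MC-J (5.48, 3.91 and 5.13), and one 2 to 3 kb from the start of Solyc01g005800 by FUL2-J, MC-J2 and MC-TM3 (4.99, 3.85 and 5.53). A nearby peak in vitro does not show that a gene is regulated, and expression was not measured in these samples.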

How the data were processed

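DAP-seq peaks of 6 TF complexes were read from 6 deposited lists, one per complex, in each of which the authors had merged 3 libraries. Per the methods, reads were trimmed with Trim Galore, mapped to the Moneyberg genome with hisat2 and passed to MACS2, against input, at a threshold of 0.0001. Versions are not given in the sources used here. As deposited, a peak has a fold enrichment at its summit over local background, with 1 added to both terms, and −log10 p and −log10 q values, all from MACS2. The lowest −log10 q was 4.01. The deposited score equalled 10 times −log10 q without decimals in 52971 of 52995 peaks and was only checked. The lists give no library depth and no value per library, so the depth behind a single library is unknown.

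A summit was the peak start plus the deposited offset. Summits 1 Mb or more and under 5 Mb from the nearest end formed the band, and those at 5 Mb or more from both ends the interior. A peak was shared if a peak of another list overlapped it by at least 1 bp, and a region joined overlapping peaks of all lists. Treatment reads and background at a summit were solved from fold and −log10 p. Intervals are at 95% (Wilson for shares, Newcombe for differences of shares, exact Poisson for densities and their ratios, binomial order statistics for medians) and cover counting error only, since amplified reads and neighbouring peaks are not independent. The 3 tests over the 6 lists were exact two-sided sign-flip permutation tests with Benjamini-Hochberg adjustment, at a threshold of 0.05. The place of FUL2-J peaks relative to genes was taken from the readable part of the authors' ChIPseeker annotation, which covered chromosome 1 and the position-0 stretch of chromosome 2. The peaks, the genes and the regions named were taken by rank of −log10 q: the strongest band peak of each list, 5 regions of all 6 lists, the strongest peaks of TM3 or J alone, and 10 FUL2-J peaks in or near genes of chromosome 1. The band and these lists were chosen with earlier results of these data known. Alternatives changed the peak threshold, the limits of the band and of the interior, the chromosome ends, the overlap, the measure of strength and the lists or chromosomes used, and 2 arms were left out as alternatives added after seeing the data. The zoning, joining and solving steps were checked on simulated data. Analyses used Python 3.11.15 with numpy 2.4.6, pandas 2.3.3, scipy 1.17.1 and matplotlib 3.10.9. No sequence is shown, since the Moneyberg genome was not used here.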

Additional observations from a re-analysis of the deposited data

Results flagged for a closer look

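The change in same-partner sharing between band and interior had opposite signs in different partner groups, in both lists of each group. The share was higher in the band for J2, by 1.24 percentage points in FUL2-J2 and 2.0 in MC-J2, and lower for J, at −4.70 in FUL2-J and −3.55 in MC-J, and for TM3, at −6.43 in FUL2-TM3 and −3.46 in MC-TM3. Without the band stretch at the position-0 end of chromosome 5, where FUL2-TM3 peaks crowd, the TM3 values were −3.54 in FUL2-TM3 and −5.35 in MC-TM3. The 2 lists of a group count the same overlaps from both sides, and the difference between partner groups was not tested.

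On unplaced sequence, which has no ends and enters no comparison, the 6 lists together held 595 peaks.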

How the results depend on the processing

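The lower density of the band kept its direction under all 25 alternatives, but not its size. With the interior limited to 5 to 10 Mb from the ends, the mean log2 ratio was −0.0148, and the ratio was above 0 on the log2 scale for FUL2-J2 (0.11) and MC-J2 (0.051). Under the same limit the mean change in same-partner sharing was 1.61 percentage points instead of −2.48, with 2.38 for FUL2-TM3 and 1.86 for MC-J. For density, the adjusted p passed 0.05 (0.0469, with the same raw p of 0.03125, through the values of the other tests) with peaks of −log10 q of at least 10 (mean log2 ratio −0.56), an outer limit of 2 Mb (−0.66), an inner limit of 6 Mb (−0.59), only the ends at the last peak (−0.54), the median over chromosomes (−0.58), and without chromosome 5 (−0.57) or its position-0 arm (−0.59). The difference in log2 fold passed with −log10 q of at least 10 (0.010), an outer limit of 2 Mb (0.028), the median over chromosomes (0.018), and without chromosome 5 (0.021) or its position-0 arm (0.022), and it was negative when −log10 q replaced fold (−0.026). Same-partner sharing passed with an inner limit of 6 Mb (−3.82 percentage points) and only the ends at the last peak (−2.18). Sharing not limited to the same partner also passed, with any list of the other protein (−2.27) or any of the other 5 lists (−2.40). With the 4000 strongest peaks of each list, the difference in same-partner sharing was −0.62. Leaving out each chromosome gave mean log2 density ratios of −0.62 to −0.51, log2 fold differences of 0.0062 (without chromosome 2) to 0.021 and sharing differences of −3.64 (without chromosome 2) to −1.91 (without chromosome 9). Of the values per list, 147 of 149 for density, 139 of 155 for fold and 161 of 173 for sharing kept their sign.

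No paired analysis was possible because each list pools its 3 libraries, and for the same reason no library was left out. The spread between libraries is therefore unknown, and the tests over lists measure only how alike 6 lists with shared proteins, DNA and input were. Peaks below the calling threshold were not analysed here.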

Other observations

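At the position-0 end of chromosome 1, 4 of 19 FUL2-J band peaks were distal intergenic and 6 lay in introns, while at the far end of this chromosome 2 of 23 were distal intergenic and 13 lay in promoters. Among the 6 distal intergenic FUL2-J band peaks of chromosome 1, 4 were overlapped by FUL2-TM3, against 5 of the 36 in or near genes. In the interior of the chromosome FUL2-TM3 overlapped 27.9% (25.1–30.9%) of the distal intergenic FUL2-J peaks and 20.9% (15.9–26.9%) of those in or near genes. The numbers of band peaks are small, and these differences were not tested.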
